A study of Saccharomyces cerevisiae with 18 samples.

Results

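Guide snoRNAs are small nucleolar RNAs that direct chemical modification of other RNAs, mainly ribosomal RNA. The members described here were the rows of the normalized count table whose identifier starts with snR, without the U3 RNAs (snR17a, snR17b) and the spliceosomal RNAs (snR6, snR7-L, snR7-S, snR14, snR19). They were 74 of the 7126 features in the table, 29 of box H/ACA and 45 of box C/D. A mean normalized count of at least 10 over the 18 libraries was reached by 44 of them, 24 of box H/ACA and 20 of box C/D, and only these entered the tests. The other 30, of which 25 were box C/D, fell under that limit. Just inside it lay snR38, with a mean of 10.5, and snR76, with 10.9, and just outside it snR47, with 9.72, snR69, with 9.17, and snR87, with 9.11. Through the Rvb2-tagged PIH1 deletion libraries alone, 7 of the 44 passed the limit (snR128, snR13, snR38, snR66, snR45, snR71 and snR85), so a count over the 44 describes them and supports nothing about all 74.

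The series measured RNA in budding yeast, Saccharomyces cerevisiae, of strain BY4741, and its title places the work on the Rvb1 and Rvb2 network after loss of components of the R2TP complex. The 6 groups of 3 biological replicates were, among cells with tagged Rvb2, a PIH1 deletion, a TAH1 deletion and a wild type, and, among cells with tagged Rvb1, a PIH1 deletion, a TAH1 deletion and a wild type. Every group, the wild types included, thus carried a tag on Rvb1 or Rvb2, and no untagged group was analysed here. RNA was enriched on oligo(dT) before sequencing. The labels do not say how the tags were made or how many clones each strain stands for.

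In background terms, a box C/D snoRNA pairs with its target and places a methyl group on the ribose, carried there by Nop1 (fibrillarin), Nop56, Nop58 and Snu13. A box H/ACA snoRNA forms hairpins whose pockets hold the target for pseudouridylation by Cbf5, with Nhp2, Nop10 and Gar1. R2TP, made of Rvb1, Rvb2, Pih1 and Tah1, is known as a chaperone complex for assembly of box C/D particles, and Shq1 and Naf1 serve box H/ACA particles. Most yeast guide snoRNAs have a gene of their own, while others are cut out of a shared precursor or out of an mRNA intron. Their transcripts end through Nrd1, Nab3 and Sen1, are trimmed by the nuclear exosome with Rrp6, and carry no long poly(A) tail when mature.

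The sequences of the members on which the results turn are printed from the RefSeq R64 assembly, the same build as sacCer3, with DNA letters, 5' to 3' on the RNA's strand. The first set holds the box H/ACA RNAs snR30, the tested member with the largest change, of whose 606 bases the last 300 are shown, on chrXII:199090-199389 (+), and snR34, with a length of 203 bases, on chrXII:899180-899382 (+), an RNA of ordinary length with a large change. Capitals mark the ACA box near the 3' end.
snR30: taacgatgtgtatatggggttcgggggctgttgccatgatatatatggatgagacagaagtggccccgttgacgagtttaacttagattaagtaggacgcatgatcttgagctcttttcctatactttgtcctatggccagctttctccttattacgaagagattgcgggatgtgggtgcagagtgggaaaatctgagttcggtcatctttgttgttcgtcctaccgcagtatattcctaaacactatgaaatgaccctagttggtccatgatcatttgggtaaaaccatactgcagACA
snR34: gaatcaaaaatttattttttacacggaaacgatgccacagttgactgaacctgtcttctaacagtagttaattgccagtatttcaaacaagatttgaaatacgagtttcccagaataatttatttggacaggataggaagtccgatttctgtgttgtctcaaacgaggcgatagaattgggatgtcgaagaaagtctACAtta
The second set holds box C/D RNAs that rose in the Rvb2-tagged PIH1 deletion: snR13 on chrIV:1402919-1403042 (+), snR4 on chrV:424698-424883 (+), snR45 on chrXVI:821732-821903 (+) and snR128 on chrX:139566-139691 (-). Capitals mark TGATGA, the core of box C, where it lies in the first 20 bases, and CTGA, box D, in the last 20 bases.
snR13: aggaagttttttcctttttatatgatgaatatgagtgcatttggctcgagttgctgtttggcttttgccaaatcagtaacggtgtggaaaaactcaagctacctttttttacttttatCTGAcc
snR4: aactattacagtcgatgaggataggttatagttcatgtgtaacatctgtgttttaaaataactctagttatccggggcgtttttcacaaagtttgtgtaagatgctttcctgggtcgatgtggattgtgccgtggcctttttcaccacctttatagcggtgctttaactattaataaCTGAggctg
snR45: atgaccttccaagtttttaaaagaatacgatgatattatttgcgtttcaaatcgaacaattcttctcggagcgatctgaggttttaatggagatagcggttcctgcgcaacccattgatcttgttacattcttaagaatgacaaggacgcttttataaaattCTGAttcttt
snR128: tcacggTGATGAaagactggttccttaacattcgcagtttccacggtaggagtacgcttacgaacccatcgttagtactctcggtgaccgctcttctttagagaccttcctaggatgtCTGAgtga
The third set holds box C/D RNAs that lie in introns and fell in some comparison: snR39 on chrVII:365163-365251 (-), in RPL7A, snR59 on chrXVI:173827-173904 (+), in RPL7B, and snR24 on chrXIII:499984-500072 (-), in ASC1, with the same capitals.
snR39: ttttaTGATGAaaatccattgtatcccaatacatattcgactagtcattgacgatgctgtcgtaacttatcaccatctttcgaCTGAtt
snR59: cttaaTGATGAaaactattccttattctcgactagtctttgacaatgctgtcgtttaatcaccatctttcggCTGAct
snR24: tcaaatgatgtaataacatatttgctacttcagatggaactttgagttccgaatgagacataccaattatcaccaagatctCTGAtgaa
The pair snR39 and snR59, which sits in introns of duplicated genes and guides the same methylation per the RefSeq notes, had the highest identity of the 2701 pairs of members, 74.2%, against a median of 44.3% (edit distance over the longer sequence). How the authors counted reads shared by such a pair is not given in the sources used here. Over all members, TGATGA stood in the first 20 bases of 36 of 45 box C/D RNAs and 1 of 29 box H/ACA RNAs. CTGA stood in the last 20 bases of 43 of 45 box C/D RNAs and 2 of 29 box H/ACA RNAs, and ACA in the last 8 bases of 17 of 29 box H/ACA RNAs and 1 of 45 box C/D RNAs. The motifs were sought on the RNA's strand.

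Per library the normalized counts came to between 4829249 and 5412654. PIH1 had 1 to 9 normalized counts in the 6 PIH1 deletion libraries and TAH1 0 to 3 in the 6 TAH1 deletion libraries, which matches their labels. In the other 12 libraries PIH1 had 125 to 170 and TAH1 138 to 234. The mRNA of the tagged gene was lower in each deletion: RVB2 had 302 to 325 normalized counts in the Rvb2-tagged PIH1 deletion, 499 to 550 in the TAH1 deletion and 815 to 952 in the wild type, and RVB1 had 591 to 705 in the Rvb1-tagged PIH1 deletion, 491 to 508 in the TAH1 deletion and 925 to 1031 in the wild type. The part of these levels in the members' changes was not tested. The a-cell genes MFA1, MFA2, STE2, STE6 and BAR1 had 1196 to 7417 normalized counts, against 0 to 73 for the alpha-cell genes MF(ALPHA)1, MF(ALPHA)2 and STE3, as BY4741 is an a strain. Among the Rvb1-tagged wild types, replicate 2 lay far from its fellows: its root mean square distance from their mean was 0.404 on the log2 scale over the features tested, against 0.155 to 0.306 for the other 17 libraries. A wild type library, replicate 1 with tagged Rvb2, carries Rvb1 in its source field but Rvb2 in its title, and was placed by its title. Positive log2 changes mean a higher value in the deletion. Changes are on the log2(normalized count + 1) scale, which understates those of low members, and are given ± SE from limma with Benjamini-Hochberg adjustment over 5825 features. A member was called at an adjusted p under 0.05, n = 3 libraries per group.

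Among the Rvb2-tagged wild type libraries, the highest levels per length were those of snR44, with 149 ± 4.93 FPKM, and snR18, with 145 ± 17.6 FPKM, both cut from introns (SD, n = 3). In the Rvb1-tagged wild type the same RNAs led, snR44 with 157 ± 36.1 FPKM and snR18 with 147 ± 26.0 FPKM, and in neither wild type did this pair differ beyond its spread. snR39 and snR24, also from introns, and snR33, a box H/ACA RNA with a gene of its own, came next in both wild types. The order was another in the Rvb2-tagged PIH1 deletion, where snR30 had 544 ± 41.4 FPKM, snR86 317 ± 24.1, snR33 296 ± 24.9 and snR4 244 ± 33.9, and snR18 stood at 139 ± 2.52 FPKM. Of these, snR86 and snR33 did not differ beyond their spread. For all 58 members with a mean of at least 10 FPKM, the count per FPKM was within 5% of that expected from the annotated length.

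In the Rvb2-tagged PIH1 deletion, 34 of the 44 tested guide snoRNAs rose, where 35.2% of all features were higher and 34.4% lower. The 44 include the 7 that passed the limit only through these deletion libraries. Median changes were larger among box H/ACA RNAs than among box C/D RNAs and smallest among RNAs in introns. These differences between kinds of member are described and were not tested. Box and gene arrangement go together in part, and the differences by box and by arrangement were not separated. Summed over the 74 members, the normalized counts were 6988, 6989 and 7575 in the PIH1 deletion libraries, against 1738, 1536 and 1397 in the wild type libraries with tagged Rvb2. All 3 deletion libraries lay above all 15 other libraries of the series, which ranged from 1397 to 1951. The members took 0.143% to 0.157% of the normalized counts in the PIH1 deletion libraries and 0.0282% to 0.0329% in the wild type. Box H/ACA RNAs summed to 5891 ± 284 in the deletion and 1004 ± 128 in the wild type, a ratio of 5.87, and box C/D RNAs to 1293 ± 56.4 and 553 ± 43.7, a ratio of 2.34 (SD, n = 3 each). The pair snR30 and snR86 made up 46.2% of the members' counts in the deletion and 15.6% in the wild type, and without that pair the ratio of the sums was 2.94, against 4.61 with it. Because RNA was taken on oligo(dT), the amount of a snoRNA, the length of its tail and the share of its precursors cannot be told apart in these counts, nor can RNA per cell and number of cells.

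**Figure D1:**
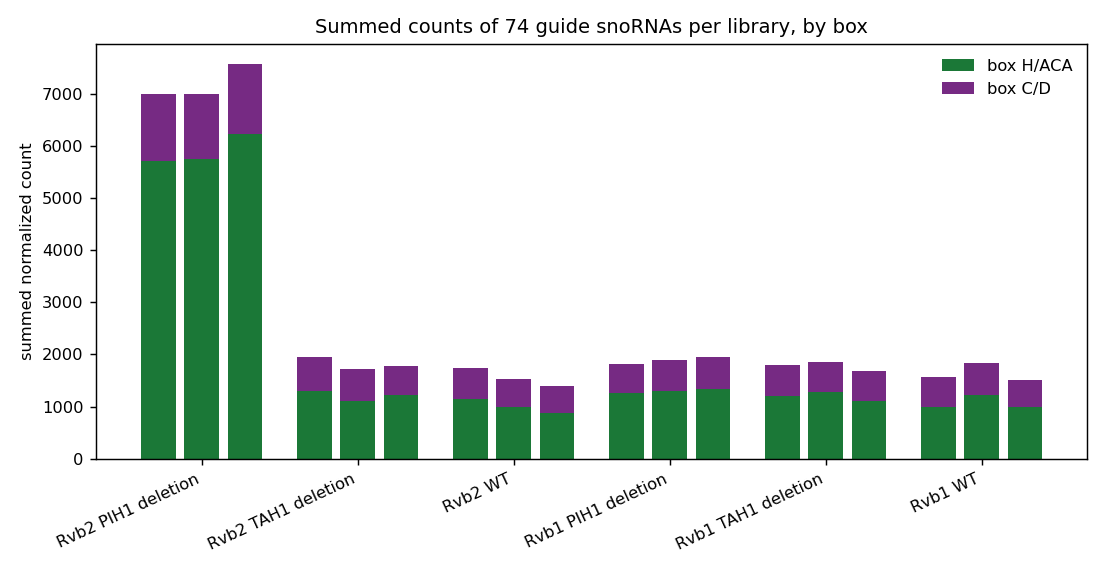
Summed normalized counts of the 74 guide snoRNAs in each of the 18 libraries, with 3 bars per group and the part of each bar from box H/ACA and box C/D RNAs in its own colour. The Rvb2 PIH1 deletion libraries reach 6988 to 7575 and every other library lies between 1397 and 1951.

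Of the 44 members tested in the Rvb2-tagged PIH1 deletion, 34 rose and 2 fell. Of all features tested in that comparison 35.2% were called higher and 34.4% lower. No reading is drawn from the members' share against this background, since some passed the limit only through these deletion libraries. The median log2 change was 1.49 over the members and 0.005 over all features. By box, 21 of 24 box H/ACA RNAs rose and 1 fell, with a median of 2.09, and 13 of 20 box C/D RNAs rose and 1 fell, with a median of 1.15. Those counts include members that passed the limit through the deletion libraries where they are high. Of the 39 members with a mean of at least 10 in the libraries outside the comparison, 29 rose and 2 fell. Of box H/ACA RNAs 20 of 23 rose and 1 fell, with a median of 2.10. Of box C/D RNAs 9 of 16 rose and 1 fell, with a median of 0.83. The 39 still hold snR38 and snR71, which passed the limit over all libraries only through the deletion libraries. The share of all features under the limit set outside the comparison is not given here. With no limit, 50 of all 74 rose and 0 fell, against 32.4% and 29.6% of all features, and 57 had an unadjusted p under 0.05. For 34 of the 44 the 3 deletion libraries lay above all 3 wild type libraries, and for 2 below, where all features gave 36.2% above and 35.5% below.

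**Figure D2:**
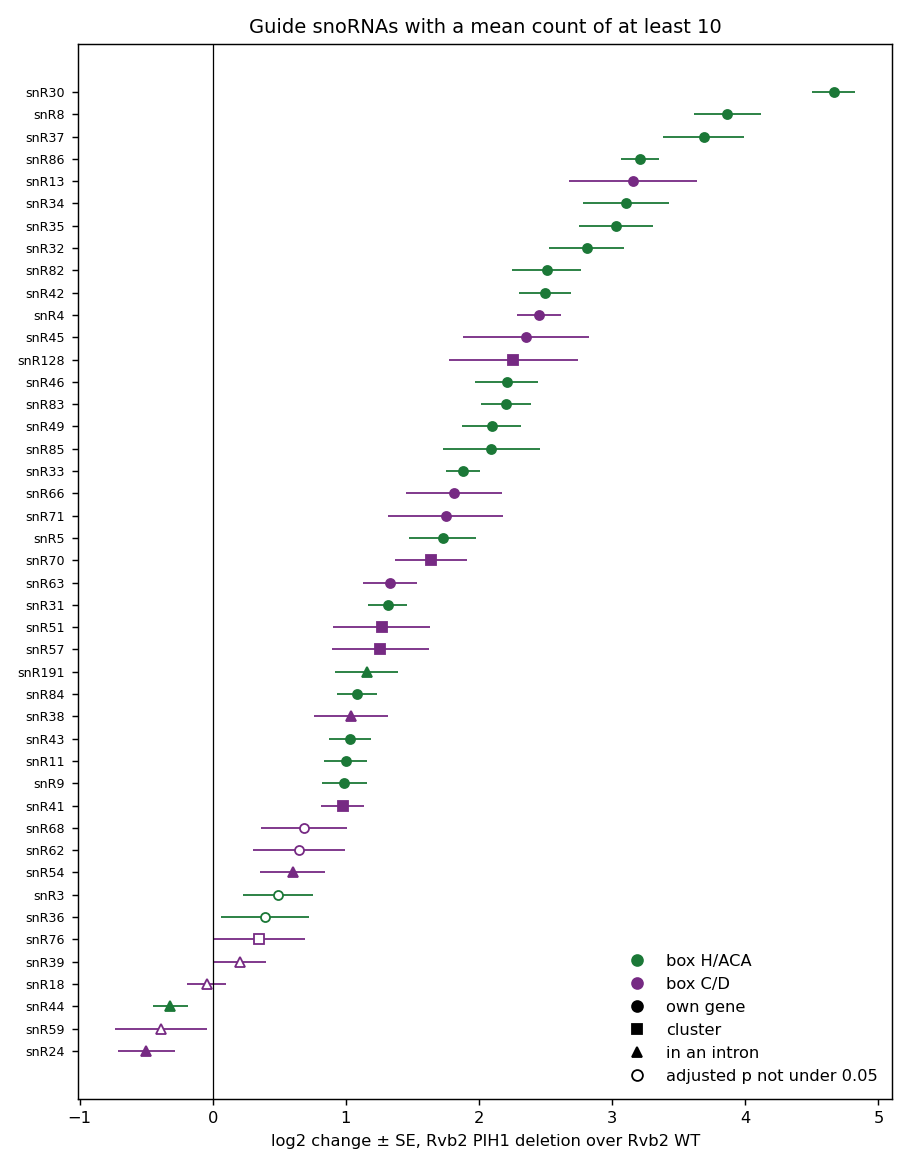
Log2 change ± SE of the 44 tested guide snoRNAs in the Rvb2 PIH1 deletion over the Rvb2 wild type, ordered by size, with colour for the box, shape for the gene arrangement and open symbols for an adjusted p not under 0.05. snR30 lies farthest to the right at 4.67, and the lowest positions are held by RNAs from introns.

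Among box H/ACA RNAs, snR30, which is needed for processing of the small subunit rRNA and is essential, had 1551, 1721 and 1802 normalized counts in the Rvb2-tagged PIH1 deletion, against 81, 57 and 61 in the wild type. Its means differed 25.5-fold, and its log2 change was 4.67 ± 0.16 (adjusted p = 9.67e-13, limma). snR86, the longest member at 1004 bases and a guide for the large subunit, had 1616, 1513 and 1762 counts in the deletion and 201, 185 and 144 in the wild type, a log2 change of 3.21 ± 0.14 (adjusted p = 1.67e-11, limma). For both RNAs the deletion libraries lay far above every other library of the series.

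snR37, a guide for the large subunit, had 244, 277 and 226 normalized counts in the Rvb2-tagged PIH1 deletion, against 24, 17 and 15 in the wild type (log2 change 3.69 ± 0.30, adjusted p = 1.93e-08, limma). snR8, which also guides pseudouridylation of the large subunit, had 140, 150 and 162 counts in the deletion and 13, 9 and 7 in the wild type (log2 change 3.87 ± 0.26, adjusted p = 1.58e-09). snR35, predicted to guide the small subunit, had 108, 96 and 110 counts in the deletion, against 8, 15 and 14 in the wild type (log2 change 3.03 ± 0.28). These RNAs were scarce in the wild type, and the groups did not overlap for any of them. snR34, whose sequence is printed above, had 100, 82 and 95 counts in the deletion and 14, 11 and 6 in the wild type (log2 change 3.11 ± 0.32). snR42, another guide for the large subunit, had 87, 105 and 111 in the deletion and 18, 16 and 17 in the wild type (log2 change 2.50 ± 0.19). snR33, an abundant guide for the large subunit, had 252, 282 and 298 counts in the deletion and 85, 75 and 65 in the wild type (log2 change 1.88 ± 0.13). The large subunit guides snR32 and snR82 and the small subunit guide snR83 had log2 changes of 2.81, 2.51 and 2.20. Rises were also called for the large subunit guides snR46, at 2.21, snR5, at 1.73, and snR43, at 1.03. They were called as well for snR31, a small subunit guide, at 1.31, and for snR85, a predicted one, at 2.09. snR85 passed the limit on the mean only through these deletion libraries. Among box H/ACA RNAs the called rises were smallest for snR9, at 0.99, and snR11, at 1.00, both guides for the large subunit. snR3 and snR36, with 0.49 (adjusted p = 0.105) and 0.39 (adjusted p = 0.296), were not called.

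**Figure D3:**
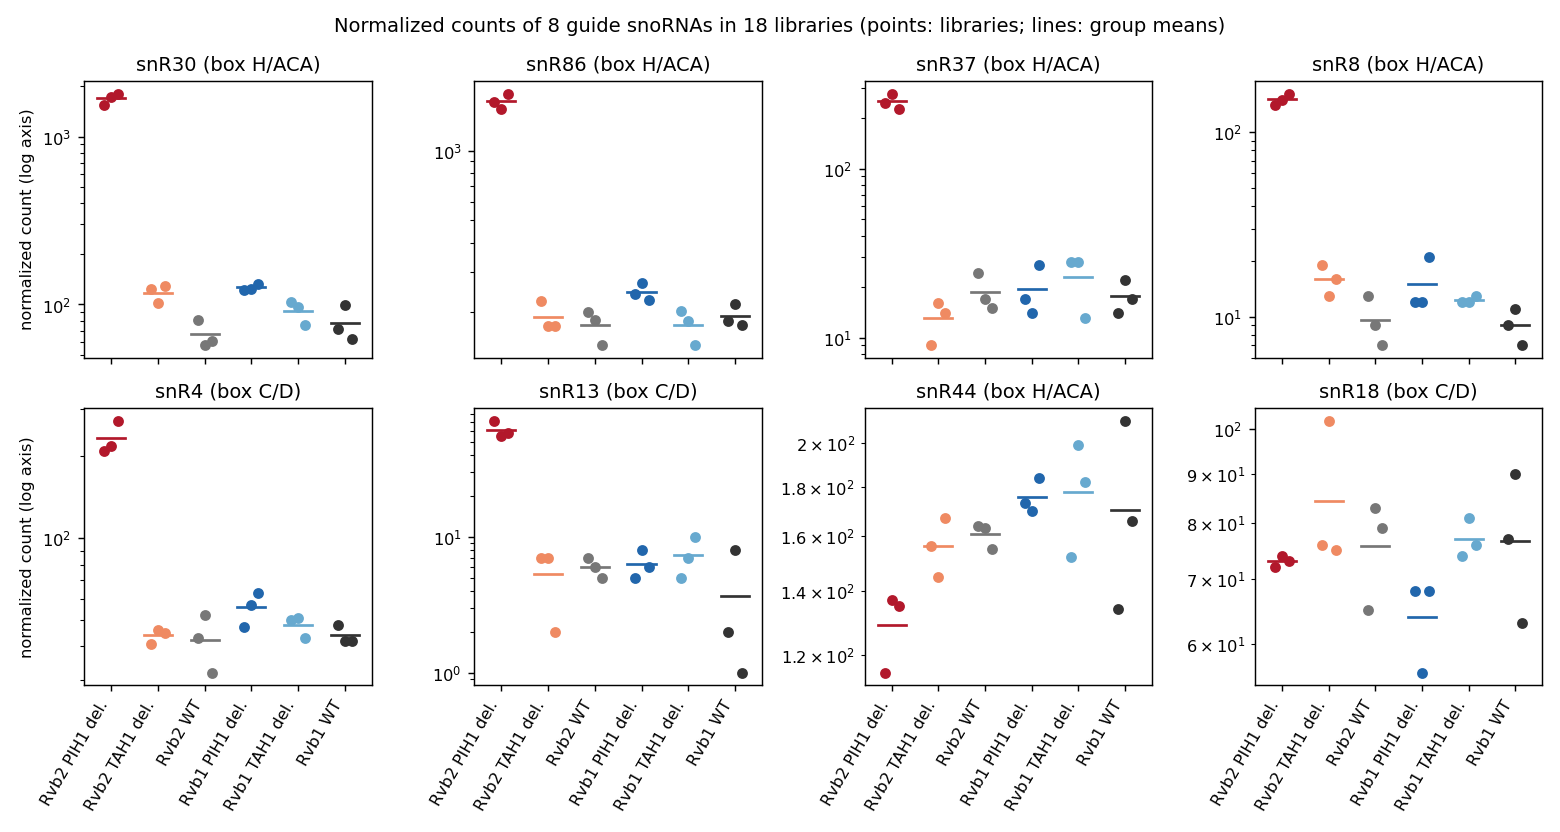
Normalized counts (log axis, a scale of its own in each panel) of 8 guide snoRNAs in the 18 libraries, with a point per library and a line at each group mean. In the panels of snR30, snR86, snR37, snR8, snR4 and snR13 the Rvb2 PIH1 deletion libraries lie above all others, while snR44 and snR18, both from introns, lack that rise.

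Among box C/D RNAs, snR4 and snR45 guide acetylation of the small subunit rRNA by Kre33 in place of methylation. snR4 had 210, 219 and 270 normalized counts in the Rvb2-tagged PIH1 deletion and 43, 52 and 32 in the wild type (log2 change 2.45 ± 0.16, adjusted p = 1.6e-09, limma). snR45 had 43, 41 and 49 counts in the deletion and 8, 10 and 6 in the wild type (log2 change 2.35 ± 0.47, adjusted p = 0.000265). Both acetylation guides thus lay above the wild type in all 3 deletion libraries. snR128 (U14), which is needed for processing of the small subunit rRNA as well as for a methylation, had 44, 40 and 36 counts in the deletion, against 11, 3 and 12 in the wild type (log2 change 2.26 ± 0.48, adjusted p = 0.00049). snR13, a guide for the large subunit, had 71, 55 and 58 counts in the deletion and 7, 6 and 5 in the wild type. Its log2 change was 3.16 ± 0.48 (adjusted p = 1.69e-05, limma). snR13, snR45, snR128, snR66 and snR71 passed the limit on the mean only through these deletion libraries, so no rank among box C/D RNAs is drawn from them. snR52, a box C/D RNA under the limit, had 23, 16 and 30 counts in the deletion and 1, 0 and 1 in the wild type. The large subunit guides snR66, snR71 and snR63 had log2 changes of 1.81, 1.75 and 1.33. Not called were snR68, at 0.69 (adjusted p = 0.0666), and snR62, at 0.65 (adjusted p = 0.105).

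By target, as the RefSeq notes give it, 20 of 28 tested guides for the large subunit alone rose, with a median log2 change of 1.25, and 8 of 9 for the small subunit alone, with a median of 1.31. With the limit set outside the comparison these were 18 of 26 and 7 of 8. Of all features tested under the limit over all libraries, 35.2% were called higher. Some members passed that limit only through the deletion libraries, and of these snR38 and snR71 stay among the 26. The share of all features under the other limit is not given here, so nothing is read from these counts. Guides noted as predicted are included. Across the 44 members the log2 change correlated with the log2 length at r = 0.54, and at r = 0.45 over the 36 that are not in introns. The correlation is a description over RNAs that share the same libraries, and longer RNAs also give more reads.

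The members also differed by gene arrangement. Of the 74, 49 have a gene of their own, 17 lie in 5 clusters with another member within 500 bases, and 8 lie in introns of protein-coding genes. In the Rvb2-tagged PIH1 deletion, 26 of 30 tested RNAs with their own gene rose, with a median log2 change of 2.09, and 5 of 6 from clusters, with a median of 1.26. Of the 8 in introns, 3 rose and 2 fell, with a median of 0.08. Among all features 35.2% were higher and 34.4% lower, so nothing is read from the counts in introns. The summed counts of the RNAs in introns were 351 ± 22.7 in the deletion and 367 ± 14.7 in the wild type, while those with their own gene summed to 6516 ± 315 and 1047 ± 152 and those in clusters to 317 ± 6.08 and 143 ± 31.7. Box H/ACA RNAs were mostly RNAs with a gene of their own. With the limit set outside the comparison, 22 of 26 RNAs with their own gene rose, among them 3 of 5 of box C/D. From clusters 4 of 5 rose. The 3 include snR71, which passed the limit over all libraries only through the deletion libraries. The share of all features under the limit set outside the comparison is not given here, so nothing is read from these counts.

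**Figure D4:**
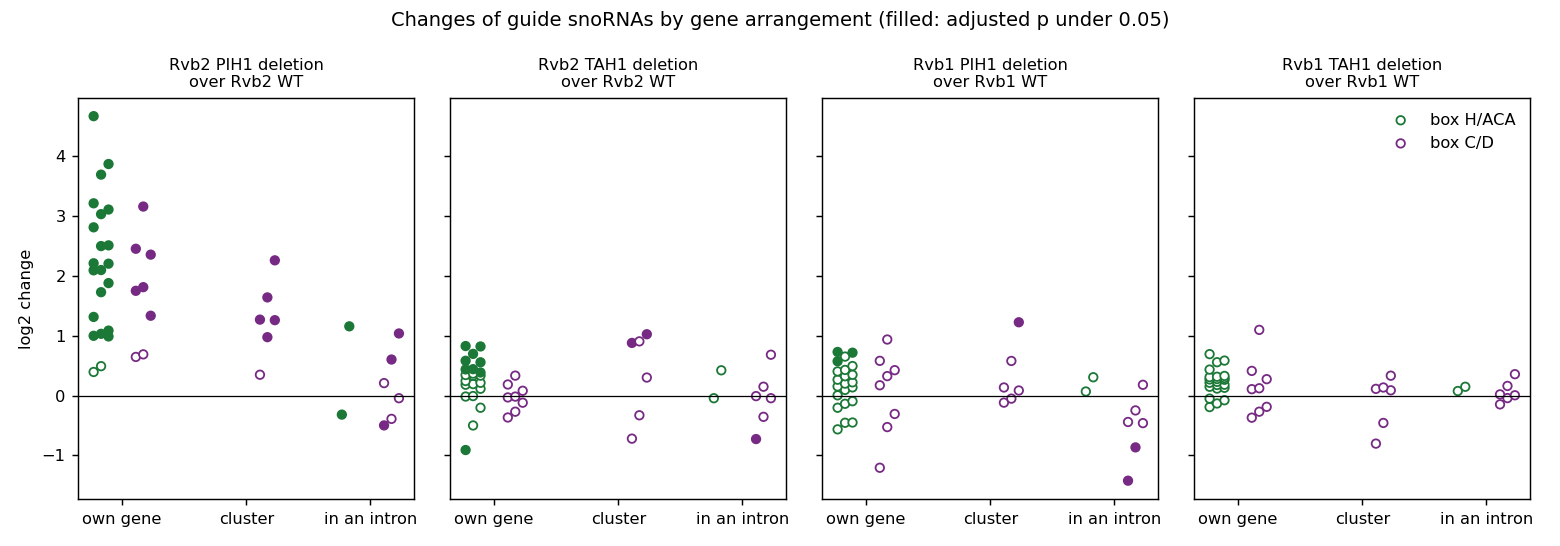
Log2 change of the 44 tested guide snoRNAs in each deletion over the wild type with the same tag, split by gene arrangement and by box, with filled symbols for an adjusted p under 0.05. In the Rvb2 PIH1 deletion the RNAs with their own gene reach 4.67 while those in introns lie between -0.50 and 1.16.

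Among the RNAs in introns, snR44, a box H/ACA RNA in RPS22B that guides both subunits, had 115, 137 and 135 normalized counts in the Rvb2-tagged PIH1 deletion and 164, 163 and 155 in the wild type (log2 change -0.32 ± 0.13, adjusted p = 0.0411, limma). snR24, in ASC1, had 26, 26 and 32 counts in the deletion and 44, 34 and 42 in the wild type (log2 change -0.50 ± 0.22, adjusted p = 0.048), while ASC1 itself had a log2 change of -0.86. Both calls sat close to the threshold and were lost in some alternatives. snR191, a box H/ACA RNA in NOG2, rose by 1.16 ± 0.24 as NOG2 rose by 1.19 ± 0.14 on the log2 scale. snR54, in IMD4, had 28, 21 and 29 counts in the deletion and 13, 16 and 22 in the wild type, which overlap (log2 change 0.60 ± 0.24, adjusted p = 0.0353), and IMD4 rose by 0.53. The call of snR54 was also lost in some alternatives, with an adjusted p of up to 0.171. snR38, in TEF4, rose by 1.04 and TEF4 by 0.22. It passed the limit on the mean only through these deletion libraries. snR18, in EFB1, had 72, 74 and 73 counts in the deletion and 65, 83 and 79 in the wild type, so its groups overlapped. Without a stated strand setting or treatment of introns, reads of a host's unspliced RNA cannot be told from those of the snoRNA within it.

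The 30 members under the limit of 10 also lay mostly higher. Their summed counts were 391, 376 and 396 in the Rvb2-tagged PIH1 deletion, against 128, 120 and 111 in the wild type. In the fit with no limit 16 of them were called higher and 0 lower, where 32.4% of all features were higher and 29.6% lower. The 16 were all 5 box H/ACA RNAs and 11 of 25 box C/D RNAs, and the share of box C/D RNAs was not far above the background. snR10, which guides a pseudouridine in the large subunit and takes part in rRNA processing, had 23, 17 and 26 counts in the deletion and 1, 6 and 2 in the wild type (log2 change 2.71 ± 0.55, adjusted p = 0.000338, limma with no limit). snR10 overlaps the annotated gene YGL088W on the same strand. snR190, predicted to guide the large subunit and paired with snR128 in a cluster, had 14, 15 and 12 counts in the deletion and 13, 6 and 6 in the wild type, which overlap (log2 change 0.73, adjusted p = 0.203). Its partner snR128 rose, as given above. Of the 7 members in the cluster of chromosome XIII, snR72 to snR78, the only tested RNA was snR76, with 9, 12 and 16 counts in the deletion and 8, 16 and 6 in the wild type, and the other 6 had at most 12 counts in any of these 6 libraries.

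Genes for the proteins of snoRNA particles also changed in the Rvb2-tagged PIH1 deletion. The counts below stand against 35.2% of all features called higher and 34.4% called lower in that comparison, and the lists are short. All 4 box C/D core protein genes rose, NOP1 by 1.16 and SNU13 by 0.48 on the log2 scale, and so did all 4 box H/ACA core protein genes, NOP10 by 1.16 and CBF5 by 0.64. NAF1 and SHQ1, the assembly factors of box H/ACA particles, rose by 1.57 and 0.96. Of the 7 genes for assembly of box C/D particles 4 rose and 2 fell, with BCD1 at 1.44 and RVB1 at 0.88 among the rises and RVB2 at -1.50 and the deleted PIH1 as the falls. Of 15 genes for trimming and surveillance of snoRNAs 14 rose and 0 fell, among them MTR4, the exosome's helicase, by 1.53, and RRP6 by 1.07. Of 5 genes for termination and polyadenylation 4 rose, NRD1 by 0.79 and NAB3 by 0.75, and PAP1, the poly(A) polymerase, fell by 0.19. KRE33, the acetyltransferase that works with snR4 and snR45, rose by 1.56, whereas TAN1, its partner for transfer RNA, had a log2 change of 0.14 (adjusted p = 0.114). These lists were chosen with earlier results of these data known, and their part in the members' rise was not tested.

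Other RNAs that lack a long poly(A) tail moved with the members. All 8 of the 12 on that list that could be tested rose in the Rvb2-tagged PIH1 deletion, where 35.2% of all features were higher and 34.4% lower. Their log2 changes ran from 1.39 (TLC1, the telomerase RNA) to 5.25 (snR17a, a U3 RNA that acts in rRNA processing), with a median of 2.02. snR17a had 357, 340 and 404 normalized counts in the deletion and 17, 9 and 4 in the wild type, and SCR1, the RNA of the signal recognition particle, had 377, 452 and 473 in the deletion and 71, 62 and 38 in the wild type. A change in how much RNA without a long tail was carried through the oligo(dT) step was not tested as a part of the members' rise. The gene downstream of a risen member was called higher for 13, lower for 5 and not called for 11 of 29 distinct genes, with a median log2 change of 0.20. Among the 8 on the member's strand these counts were 2, 2 and 4. With 35.2% of all features higher and 34.4% lower, nothing is read from the counts of downstream genes.

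In the PIH1 deletion with tagged Rvb1, few members changed. Of the 44 tested, 4 rose and 2 fell, where 19.2% of all features were higher and 18.7% lower, and the median log2 change was 0.15 over the members and 0.011 over all features. Box H/ACA gave 3 of the rises. snR30 had 122, 124 and 133 normalized counts in the deletion and 71, 99 and 62 in the wild type (log2 change 0.73 ± 0.16, adjusted p = 0.00234, limma). snR84, a guide for the large subunit, had 100, 123 and 113 counts in the deletion and 64, 79 and 61 in the wild type (log2 change 0.72 ± 0.15, adjusted p = 0.00157), and snR33 changed by 0.57 ± 0.13 (adjusted p = 0.00241). For these RNAs every deletion library lay above every wild type library. snR57, a box C/D guide for the small subunit, had 15, 25 and 23 counts in the deletion and 7, 6 and 13 in the wild type (log2 change 1.22 ± 0.36, adjusted p = 0.0146). That call was lost without replicate 1 of the wild type or replicate 2 of the deletion, with an adjusted p of up to 0.0578.

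Both falls were box C/D RNAs in introns of the RPL7 genes, which guide the same methylation. snR59, in RPL7B, had 4, 5 and 4 normalized counts in the Rvb1-tagged PIH1 deletion and 19, 7 and 17 in the wild type (log2 change -1.42 ± 0.35, adjusted p = 0.0044, limma). RPL7B itself fell by 1.72 ± 0.13 on the log2 scale. snR39, in RPL7A, had 26, 27 and 22 counts in the deletion and 40, 56 and 44 in the wild type (log2 change -0.87 ± 0.20, adjusted p = 0.00264), while RPL7A had -0.05 ± 0.07 (adjusted p = 0.654). The other way round, RPS22B fell by 1.14 ± 0.07 and its intron's snR44 had 0.07 ± 0.13 (adjusted p = 0.719). Host and snoRNA were thus both called lower at RPL7B, the snoRNA alone at RPL7A and the host alone at RPS22B, and the difference between host and snoRNA was not tested. With tagged Rvb2, RPL7B fell by 1.15 in the PIH1 deletion, with snR59 at -0.39 (adjusted p = 0.327), and by 0.78 in the TAH1 deletion, with snR59 at -0.01 (adjusted p = 0.984).

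**Figure D5:**
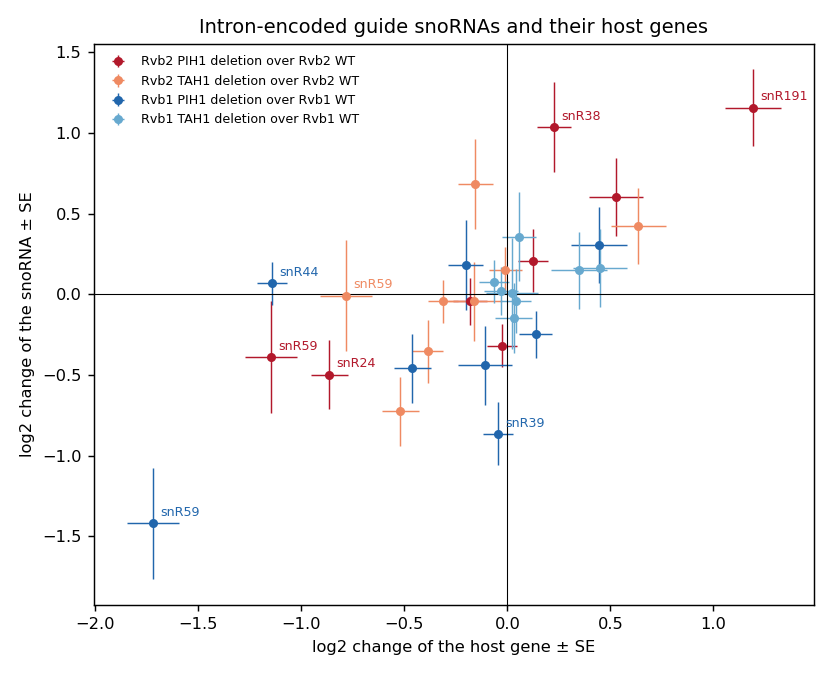
Log2 change ± SE of the 8 guide snoRNAs in introns (vertical) against that of their host genes (horizontal) in each deletion over the wild type with the same tag. snR191 and snR59 follow their hosts in the Rvb2 and Rvb1 PIH1 deletions, while snR44 stays near 0 as its host fell by 1.14 in the Rvb1 PIH1 deletion.

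Without replicate 2 of the Rvb1-tagged wild type, which stands apart, the Rvb1-tagged PIH1 deletion had 9 rises and 2 falls. Added were snR13, with a log2 change of 1.56, snR70, with 0.86, snR8, with 0.79, snR46, with 0.68, and snR86, with 0.44, and all 6 calls of the full comparison stayed. Quantile normalization gave 11 rises and 2 falls, against 4 and 2 in the deposited scaling. The shares of all features called without that library or under quantile normalization are not given here, so nothing is read from these counts about the members. Among the other RNAs without a long tail, snR17a rose by 2.08, LSR1 (U2) by 1.25 and SCR1 by 1.09 in this deletion, TLC1 fell by 0.28, and the others of the 8 tested were not called.

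In the TAH1 deletion with tagged Rvb2, 10 members rose and 2 fell of 44 tested, where 23.8% of all features were higher and 20.6% lower. The median log2 change was 0.19 over the members and 0.023 over all features. snR30 had 123, 102 and 128 normalized counts in the deletion and 81, 57 and 61 in the wild type, with no overlap (log2 change 0.83 ± 0.16, adjusted p = 0.000494, limma). snR31, a guide for the small subunit, had 87, 64 and 85 counts in the deletion and 59, 47 and 50 in the wild type (log2 change 0.58 ± 0.15, adjusted p = 0.00415). The other box H/ACA rises were smaller or more scattered: snR32 had a log2 change of 0.82, snR8 0.70, snR83 0.56, snR33 0.44, snR43 0.44 and snR84 0.38, and for snR8, snR33 and snR84 the libraries of the groups overlapped.

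Among box C/D RNAs, snR41, a small subunit guide, and snR70, a predicted one, rose in that deletion. Both lie in a cluster on chromosome XVI. snR41 had 53, 51 and 48 normalized counts in the Rvb2-tagged TAH1 deletion and 33, 25 and 24 in the wild type (log2 change 0.88 ± 0.16, adjusted p = 0.000314, limma), and snR70 had 68, 49 and 52 in the deletion and 38, 30 and 17 in the wild type (log2 change 1.02 ± 0.27, adjusted p = 0.00541). snR51, their neighbour, had a log2 change of 0.91 (adjusted p = 0.0533). The median log2 change of the 450 tested features of chromosome XVI was 0.97 in this comparison, against -0.11 to 0.04 for the other 15 chromosomes, so the changes of these RNAs were of the size of their whole chromosome's; its part was not tested for each RNA. snR45 and snR59, the other tested members on chromosome XVI, had -0.37 (adjusted p = 0.55) and -0.01 (adjusted p = 0.984).

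The falls in the Rvb2-tagged TAH1 deletion were snR24 and snR36. snR24 had 30, 20 and 22 normalized counts in the deletion and 44, 34 and 42 in the wild type (log2 change -0.73 ± 0.22, adjusted p = 0.0113, limma), and its host ASC1 fell by 0.52. snR36, a guide for the small subunit, had 14, 6 and 6 counts in the deletion, against 21, 16 and 12 in the wild type, which overlap (log2 change -0.91 ± 0.33, adjusted p = 0.0329). Of these 12 calls, snR30 and snR31 stayed under every alternative, and snR41 and snR70 under every alternative that tested them, which leaves out a minimum mean of 50 and the fit without chromosome XVI. Quantile normalization left 5 rises and 2 falls. Of the 8 RNAs without a long tail that were tested, 3 rose and 1 fell in this deletion, with a median of 0.02, where 23.8% of all features were higher and 20.6% lower. snR17a, snR17b and LSR1 rose by 2.44, 2.08 and 0.98, and TLC1 fell by 0.31.

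In the TAH1 deletion with tagged Rvb1, limma called 0 of the 44 members, where 6.28% of all features were higher and 4.48% lower. An unadjusted p under 0.05 was found for 5 members, against 28.4% of all features. The median log2 change was 0.15 over the members and 0.005 over all features. The smallest adjusted p was that of snR42, with 19, 25 and 22 normalized counts in the deletion and 16, 16 and 12 in the wild type (log2 change 0.56 ± 0.19, adjusted p = 0.0689). Without replicate 2 of the wild type, 4 members were called higher, namely snR13, snR49, snR30 and snR42, with log2 changes of 1.72, 0.73, 0.45 and 0.62. The share of all features called in that fit is not given here, so nothing is read from this count. snR17a rose by 1.69 in this deletion, while its 7 fellow RNAs without a long tail were not called.

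By limma, the log2 change in the PIH1 deletion was more positive with tagged Rvb2 than with tagged Rvb1 for 30 of the 44 members and more negative for 0 by the test of the difference itself, where 25.7% of all features were called more positive and 24.7% more negative. The median difference was 1.18. For snR30 it was 3.94 ± 0.23 (adjusted p = 4.06e-09, limma). The 30 were 20 of 24 box H/ACA RNAs and 10 of 20 box C/D RNAs, and they include snR39, whose change was 0.21 with tagged Rvb2 (adjusted p = 0.354, limma) and -0.87 with tagged Rvb1. snR45, snR128, snR13, snR66 and snR85, also among the 30, passed the limit on the mean only through the Rvb2-tagged PIH1 deletion libraries. These counts thus describe the 44 and support nothing about all 74. RVB1 and RVB2 themselves had differences of 1.45 and -1.68, and their part in the members' differences was not tested. For TAH1 the difference was called for snR41 alone, at 0.74 ± 0.23 (adjusted p = 0.0245), where 13% of all features were more positive and 11.5% more negative with tagged Rvb2. Without the features of chromosome XVI, on which snR41 lies, that count was 0, since snR41 itself was left out.

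Set against the TAH1 deletion with the same tag, the PIH1 deletion with tagged Rvb2 had 33 members higher and 0 lower, where 28.7% of all features were higher and 33.6% lower. The median log2 difference was 1.23. Of the 44 members tested, 7 passed the limit on the mean only through these Rvb2-tagged PIH1 deletion libraries. The PIH1 deletion with tagged Rvb1 had 5 members higher and 2 lower than its TAH1 deletion, where 12% of all features were higher and 14.5% lower. These counts were 0 higher and 2 lower without replicate 2 of that PIH1 deletion, 1 and 3 without its replicate 3, and 2 and 2 without replicate 1 of the TAH1 deletion. With all libraries the lower ones were snR39, at -0.82 ± 0.20 (adjusted p = 0.00479, limma), and snR59, at -1.43 ± 0.35 (adjusted p = 0.00551). The wild types, with tagged Rvb2 over tagged Rvb1, had 0 members called by limma, with 1 at an unadjusted p under 0.05 (snR32, log2 difference -0.93 ± 0.28, adjusted p = 0.0913), where 0.0858% of all features were higher and 0.12% lower, and 23.6% had an unadjusted p under 0.05. All comparisons of deletions within a tag share their wild type libraries, and each comparison's values were set side by side.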

How the data were processed

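Poly(A)-enriched RNA was sequenced in 18 libraries. The authors deposited normalized counts as whole numbers (unit: signal) and FPKM values rounded to whole numbers (unit: score), for 7126 features. How the counts were normalized is not stated in the labels. Per the submitters' processing notes, the tools were TopHat2 2.0.3 and DESeq2 1.6.3 and the build sacCer3. Not given in the sources used here are the role of each tool, how reads were counted, the annotation, whether strand was used, and any filtering. Whole reads could not be recovered from the rounded values, so no count test was run.

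With limma 3.58.1 in R 4.3.3, 6 group means were fitted to log2(normalized count + 1) of the 5825 features with a mean of at least 10, with an intensity trend. There were 9 comparisons, two-sided, with Benjamini-Hochberg adjustment over all features tested and a threshold of 0.05. What the p-values reflect is the spread among these cultures' libraries, whose number limits precision. Identifiers were matched to RefSeq R64 (6162 of 7126), and box and target of the 74 members to its notes. Scripts were checked on simulated data.

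The members and lists were chosen with earlier results of these data known. Named were members past the threshold (the 12 with the smallest adjusted p where there were more), the 8 with the highest mean FPKM, snR30, snR10, snR128, snR190, snR4 and snR45, RNAs in introns with their hosts, members next to the limit, and up to 4 genes per list. Other members named were chosen after their values were seen, as were list genes beyond this number. Alternatives were pseudocounts of 0.5 and 5, minimum means of 1 and 50 or none, TMM and quantile scaling, library weights, only the libraries compared, FPKM, a replicate block, members without overlaps and each library left out. Added after the data were seen were a limit set outside the comparison and a fit without chromosome XVI.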

Additional observations from a re-analysis of the deposited data

Results flagged for a closer look

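For 30 guide snoRNAs the change in the PIH1 deletion differed between cells with tagged Rvb2 and cells with tagged Rvb1, by limma's test of the difference with Benjamini-Hochberg adjustment over all features. The differences (log2 change with tagged Rvb2 minus that with tagged Rvb1) were positive for all 30. Of these, snR45, snR128, snR13, snR66 and snR85 entered the test only through the Rvb2-tagged PIH1 deletion libraries, where they are high. Among box H/ACA RNAs they were 3.94 for snR30, 3.59 for snR37, 3.37 for snR32, 3.21 for snR8, 2.86 for snR86, 2.84 for snR34, 2.60 for snR35, 2.34 for snR42, 2.31 for snR82, 2.18 for snR5, 2.07 for snR83, 1.77 for snR85, 1.72 for snR46, 1.69 for snR49, 1.31 for snR31, 1.30 for snR33, 1.12 for snR9, 1.09 for snR11, 0.85 for snR191 and 0.81 for snR43. Among box C/D RNAs they were 3.56 for snR45, 2.31 for snR128, 2.22 for snR13, 2.13 for snR4, 1.64 for snR66, 1.07 for snR39, 1.06 for snR70, 1.04 for snR54, 0.91 for snR63 and 0.84 for snR41. That of snR45 had an SE of 0.67 and takes in a change of -1.2 with tagged Rvb1 that was not called (adjusted p = 0.053, limma). There snR45 had only 1, 1 and 3 counts in the PIH1 deletion and 3, 6 and 6 in the wild type. Of the 30, 29 were called again without replicate 2 of the Rvb1-tagged wild type and 29 without replicate 1 of the Rvb2-tagged wild type, whose labels name both tags. For the TAH1 deletion the change differed for snR41, by 0.74.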

How the results depend on the processing

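Counts of members called are given as main and alternative values, without the share of all features called in each alternative. They describe how the calls depend on the processing and are not set against a background. The PIH1 deletion with tagged Rvb2 had 36 calls, and 33 to 36 with a library left out; 33 of the 36 stayed under every alternative that tested them, while snR44, snR54 and snR24 were lost under some (adjusted p up to 0.288, 0.171 and 0.128). No call of a deletion against its wild type changed direction in any alternative that tested it. Direction was not checked for the calls of the other comparisons. A minimum mean of 50, which tests fewer members, gave 16 calls there, 3 for the Rvb1-tagged PIH1 deletion (against 6), 6 for the Rvb2-tagged TAH1 deletion (against 12), 4 for PIH1 over TAH1 deletion with tagged Rvb1 (against 7), 15 for the same with tagged Rvb2 (against 33), 14 for the PIH1 difference between tags (against 30) and 0 for the TAH1 difference (against 1). The Rvb1-tagged PIH1 deletion had 10 calls at a minimum mean of 1, 11 with no minimum, 13 under quantile scaling, 16 with library weights and 6 to 11 with a library left out. The Rvb1-tagged TAH1 deletion had 0 calls, 1 under quantile scaling, 7 with library weights and 0 to 4 with a library left out. The Rvb2-tagged TAH1 deletion had 7 calls under quantile scaling, 22 with library weights, 7 with only the libraries compared and 6 to 15 with a library left out (6 without wild type replicate 3 or deletion replicate 3, 7 without deletion replicate 1). PIH1 over TAH1 deletion with tagged Rvb1 had 2 to 7 with a library left out (2 without PIH1 deletion replicate 2, 4 without PIH1 deletion replicate 3 or TAH1 deletion replicate 1), with tagged Rvb2 30 to 35, and the PIH1 difference 28 to 34. The TAH1 difference had 0 under quantile scaling, 9 with library weights, 0 without chromosome XVI and 0 to 3 with a library left out. The wild types had 0 calls, also with each library left out, and 7 with library weights, whose estimate stopped before it converged. The cause of these shifts was not tested. The quantile scaling moved the members' median log2 change in the Rvb1-tagged PIH1 deletion to 0.38, against 0.15. At few counts per library, as in the 30 members under a mean of 10, differences were not detectable at this depth unless large.

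With the replicate number as a block, the counts were 7 and 0 for the PIH1 and TAH1 deletions with tagged Rvb1, 36 and 11 with tagged Rvb2, 6 and 33 for PIH1 over TAH1 deletion with tagged Rvb1 and Rvb2, 0 between the wild types, and 29 (PIH1) and 1 (TAH1) by the differences between tags. Deviations of libraries with the same number correlated at -0.38 to 0.23, so the numbers were not taken to pair the samples.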
